A study of Arabidopsis thaliana with 6 samples.

Results

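The genes that the chloroplast carries in its own genome were followed on Affymetrix ATH1 arrays hybridised with RNA from GRF9-IOE plants, an Arabidopsis line in which the growth regulator GRF9 is expressed from an estradiol (EST)-inducible promoter. Members were all probe sets that the array annotation pairs with exactly 1 gene of the plastid genome. There were 69 such probe sets, for 69 different genes, among 22746 probe sets other than controls. They fell into groups by symbol: 5 psa genes (photosystem I), 15 psb genes (photosystem II), 6 pet genes (cytochrome b6f complex), 6 atp genes (ATP synthase), 10 ndh genes (the NDH complex), rbcL (Rubisco), 4 rpo genes (RNA polymerase), 15 rpl and rps genes (ribosomal proteins) and 7 others. Another 8 probe sets, for rps12, rpl2, rpl23, ycf2, ndhB, rps7 and ycf1, are paired with more than 1 gene copy because these genes lie in the inverted repeat, and they were not counted as members.

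There was 1 array for each of 6 conditions. Whole 2-week-old seedlings from MS plates in long days were treated with 10 µM EST or with the ethanol solvent alone (mock) for 3 h or 4 h. Detached mature leaves of 40-day-old plants, grown on soil with day and night of equal length, received the same treatments for 6 h. All samples carried the transgene and no line without it was treated with EST, so GRF9 induction and the inducer itself cannot be told apart. Tissue, age, medium, day length, detachment and treatment time differ together between leaves and seedlings and cannot be told apart either.

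The plastid genome encodes the core subunits of the photosynthetic complexes, whereas most of the remaining subunits are encoded in the nucleus and imported. Its genes lie in clusters that are often transcribed together and then processed, and they are read by a bacterial-type polymerase, whose core is made by the rpo genes, and by phage-type polymerases from the nucleus. Genes for photosynthesis depend largely on the bacterial-type enzyme, and the rpoB cluster and accD largely on the phage-type enzymes. Plastid messengers mostly lack the stable poly(A) tails of nuclear messengers, and a tail often marks a plastid RNA for decay. The labelling kit used here starts from poly(A). A signal of a plastid gene can therefore move with the amount of its RNA or with the share of that RNA that is labelled, and these cannot be told apart in these data. Fewer plastid RNAs per cell and fewer cells that hold them cannot be told apart in such bulk samples either.

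Values are log2 signals as deposited, with a lowest value of 2.15 on every array, below which no decrease can be seen. Array medians lay between 5.15 and 5.33, and Pearson correlations over probe sets, which are not independent, were 0.995 to 0.997 within seedlings, 0.993 within leaves and 0.910 to 0.926 across tissues. PYK10, a β-glucosidase of roots, had signals of 12.06 to 12.27 on the seedling arrays and 2.17 on both leaf arrays. The other root marker measured, EXPA7, was near the lowest value on all arrays (2.15 to 2.25), so it does not separate the tissues. GRF9 has no probe set, so its induction could not be checked on the arrays. The control probe set for the cytosolic 25S rRNA had mock and EST signals of 9.02 and 9.09 (3 h), 7.84 and 6.58 (4 h), and 8.40 and 7.85 (6 h). Hybridization spike-ins, which are added after labelling, were higher on the EST than on the mock array of 6 h (median of 18 probe sets 0.43), against medians of 0.19 at 3 h and −0.08 at 4 h. The 3′ minus 5′ signal of GAPDH was 1.79 in mock and 1.36 in EST leaves and 0.78 to 1.26 in seedlings, that of actin 2.33, 2.02 and 1.31 to 1.95, and that of ubiquitin 0.95, 0.92 and 0.87 to 1.12. In a second GAPDH control pair, leaves had 3′ signals of 11.80 (mock) and 12.33 (EST) and 5′ signals of 11.89 and 12.10. There the 3′ signal lay below the 5′ signal in mock leaves and above it in EST leaves. The order of mock and EST leaves thus differed between the GAPDH pairs. The part of these values in the results that follow was not tested.

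**Figure D1:**
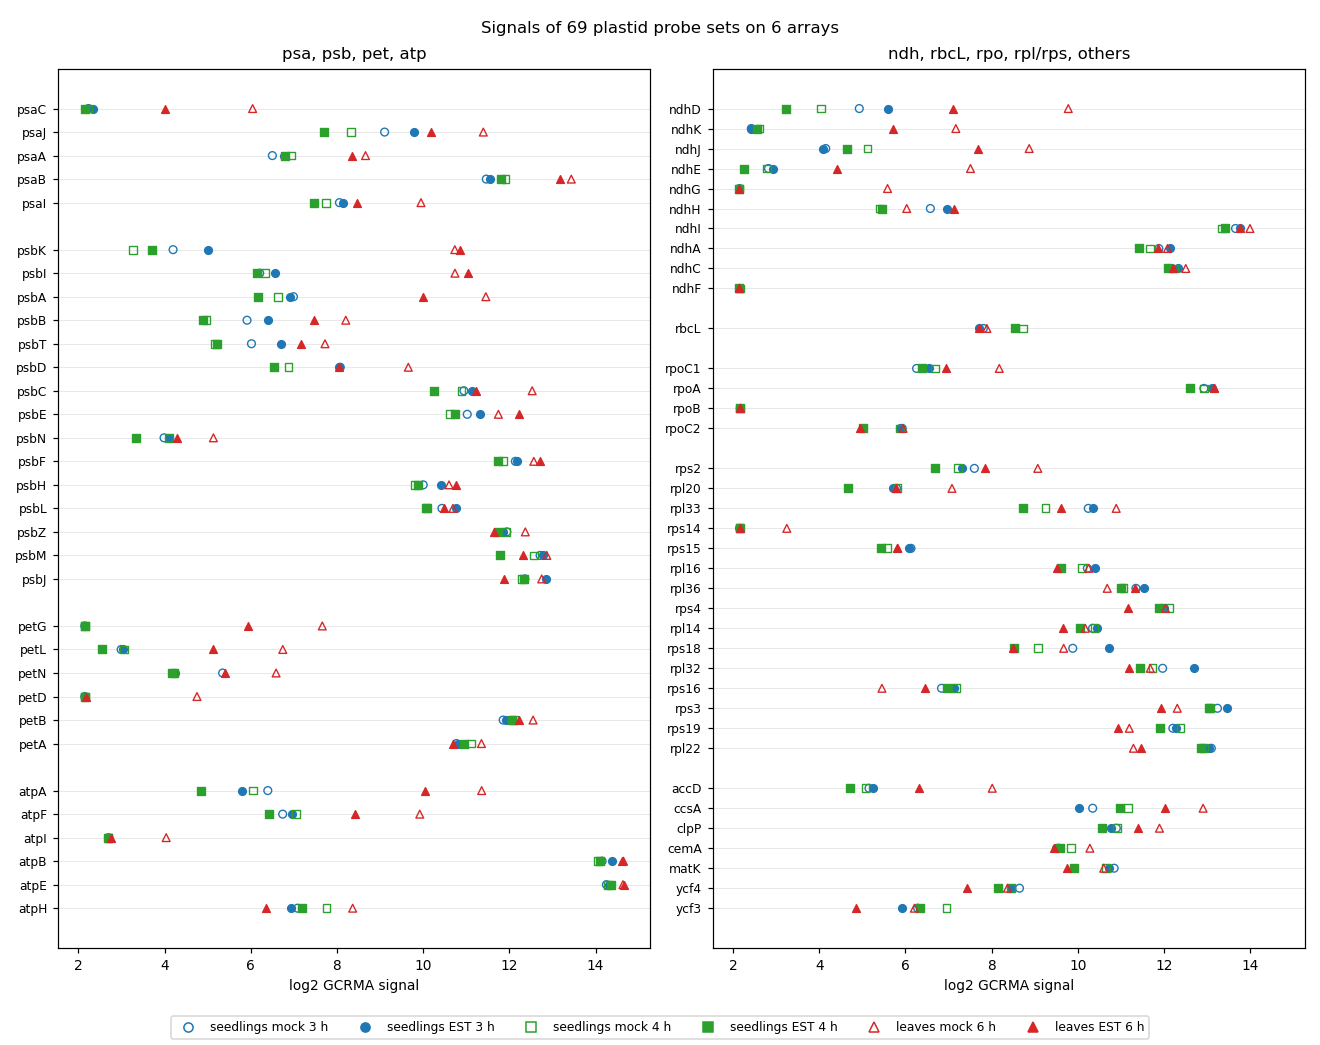
Log2 GCRMA signal (horizontal axis) of each of the 69 plastid probe sets on the 6 arrays, grouped by symbol and, within a group, ordered by the difference between leaves and seedlings. Open symbols are mock and filled symbols EST; the leaf triangles of psbK, psbI, petG and atpA lie to the right of all seedling symbols, whereas those of rpl22, rps19 and rps3 lie to the left.

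Most plastid signals were lower on the EST than on the mock leaf array, and the median over all members lay further below 0 than between the seedling arrays compared. In detached leaves at 6 h the median EST minus mock difference of the 69 members was −0.83 on the log2 scale, whereas the median over all probe sets was 0. The medians were 0.08 at 3 h and −0.20 at 4 h in seedlings, again with 0 over all probe sets. At 6 h, 57 members were lower with EST than with mock and 10 were higher, whereas at 3 h 20 were lower and 42 higher, and at 4 h 54 were lower and 11 higher. Of all probe sets, 32.1% to 33.3% were lower and 36.3% to 37.6% higher at these time points, and the others did not differ. In all, 48 members (69.6%) were lower with EST at both 4 h and 6 h, as were 14.5% of all probe sets.

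A difference of at least 2-fold at 6 h was found for 27 members lower with EST, which is 39.1% of them, against 1.22% of all probe sets. On the mock leaf array, 2 members and 8750 of all 22746 probe sets had signals under 3. A 2-fold decrease cannot be seen from there, which lowers the share of all probe sets. Plastid genes made up 9.71% of the 278 probe sets that were at least 2-fold lower at 6 h. A single member, ndhH, was at least 2-fold higher, against 1.24% of all probe sets. At 3 h, 1 member (petN) was at least 2-fold lower and 0 were higher, where all probe sets gave 0.426% and 1.27%. At 4 h, 2 members (atpA and rpl20) were lower and 0 were higher, where all probe sets gave 0.189% and 0.717%. With 1 array per condition these differences have no replicate check and no p-value.

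**Figure D2:**
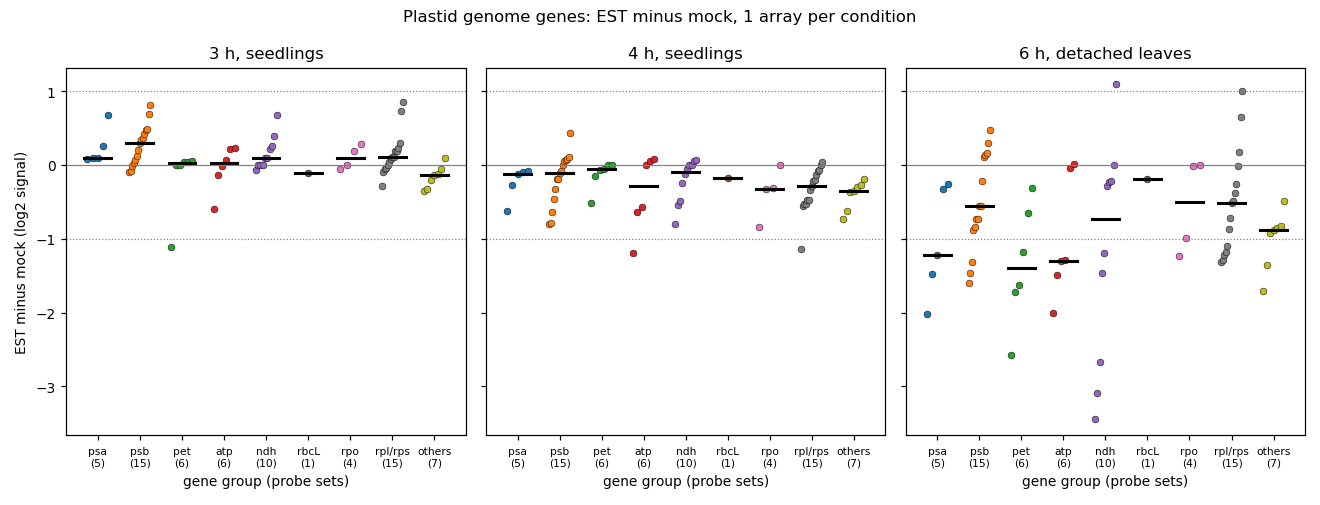
EST minus mock difference in log2 signal (vertical axis) of each plastid probe set, by gene group (horizontal axis, with the number of probe sets), at 3 h and 4 h in seedlings and at 6 h in detached leaves. Points are probe sets, black bars are group medians and dotted lines mark 2-fold; at 6 h the medians of all 9 groups lie below 0, from −1.40 for pet to −0.19 for rbcL.

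As a yardstick without EST, the 4 h mock array was set against the 3 h mock array, and the members had a median difference of −0.03. Of these, psbD (−1.20), ndhH (−1.18) and petN (−1.12) were at least 2-fold lower at 4 h, against 0.29% of all probe sets. Between the EST seedling arrays the median was −0.42, and 12 members were at least 2-fold lower at 4 h than at 3 h, against 0.321% of all probe sets, with ndhD (−2.36), rps18 (−2.21) and psaJ (−2.08) the furthest. Those 12 made up 16.4% of the 73 probe sets that differed so. For psb the median between these EST seedling arrays, −0.72, lay further below 0 than EST minus mock at 6 h in leaves, −0.56. For rpl/rps these medians were −0.54 and −0.51. In the groups psa, pet, atp, ndh, rpo and others the 6 h median lay further below 0. Plastid genes thus varied more between seedling arrays than a typical probe set, with a median SD over the 4 seedling arrays of 0.25 against 0.10. Among probe sets with signals of at least 3 on all 4, which leaves out those that can hardly vary, the medians were 0.31 for 58 members and 0.15 for all. The 25S rRNA control also differed between these arrays, by −1.17 between the mock and −2.51 between the EST arrays, and its part was not tested.

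Taken over the 3 time points with the time point as a block (limma, 2 residual degrees of freedom), 0 members passed the adjusted threshold of 0.05, as did 0% of all probe sets. Unadjusted p-values under 0.05 were found for 2 members, both lower with EST, and for 751 higher and 413 lower probe sets in all. They were atpA, with a mean difference of −1.03 ± 0.20 (SE; limma adjusted p = 0.872), and rbcL, with −0.16 ± 0.02 (limma adjusted p = 0.807). Both were lower with EST in 3 of 3 time points, as were 19 of the 69 members (27.5%) in all and 7.06% of all probe sets. A test of whether the response of leaves differed from that of seedlings (limma, 1 residual degree of freedom) also called 0 members and 0% of all probe sets. Without adjustment, 10 members had p-values under 0.05 in the direction of a lower response in leaves and 1 (rpl22) in the other, against 7.47% and 7.30% of all probe sets. Of the 10, 7 were near the lowest value on all seedling arrays, where hardly any response can be measured, so these p-values give no support to a difference between the tissues.

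Between leaves and seedlings the members ranged more widely, from −1.61 to 6.74 on the log2 scale. The median of leaves minus seedlings over the members was 0.61, against 0 for all probe sets, and 28 members were at least 2-fold higher in leaves and 4 at least 2-fold lower, against 13.4% and 13.1% of all probe sets. In limma with the treatment as a covariate (3 residual degrees of freedom, adjusted p under 0.05), 16 members were higher in leaves and 3 lower, or 23.2% and 4.35%, where 19% and 18.2% of all probe sets were called. The share called higher depended on the setting. Without the mock seedling array of 3 h it was 15.9% against 13.9% of all probe sets, and without the EST array of 4 h 15.9% against 14.0%. It was 17.4% against 12.9% without the mock array of 4 h and 29.0% against 13.8% without the EST array of 3 h. It was 47.8% against 24.8% of all probe sets after centring, 46% against 36.6% above a mean signal of 6 and 21.7% against 7.82% with mock arrays alone. Both leaf arrays lay above all 4 seedling arrays for 35 members (50.7%) and below all of them for 4 (5.80%), against 25.5% and 25.7% of all probe sets. The median depended on which leaf array was kept, being 0.30 without mock leaves and 0.92 without EST leaves. Without the mock seedling array of 4 h, 1 member instead of 3 was called lower, and with mock arrays alone 0 were.

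Photosystem I passes electrons from plastocyanin to ferredoxin, and its 5 measured plastid genes were all at least 2-fold higher in leaves and all lower with EST at 6 h. For psaC, which encodes the subunit that holds the terminal iron-sulfur clusters, signals were 2.24 (mock) and 2.33 (EST) at 3 h, 2.24 and 2.15 at 4 h and, in leaves, 6.04 and 4.02 at 6 h. Signals of further genes are given in the same order, mock before EST at 3, 4 and 6 h. The seedling arrays of psaC thus lay at or near the lowest value, and the leaf signal was higher by 2.79 ± 0.55 (SE; limma adjusted p = 0.0332), a call lost when any single seedling array was left out. At 6 h psaC differed between EST and mock by −2.02, psaI by −1.48 and psaJ by −1.22, the last 2 being small membrane subunits.

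The genes of the reaction centre core differed less between EST and mock. For psaA, signals were 6.50 and 6.76 at 3 h, 6.93 and 6.81 at 4 h and, in leaves, 8.66 and 8.34 at 6 h. For psaB, they were 11.46 and 11.55, 11.91 and 11.81, and 13.44 and 13.18. Both genes were higher in leaves, by 1.75 ± 0.18 and 1.62 ± 0.19 (limma adjusted p = 0.00705 and 0.00913), and differed between EST and mock leaves by only −0.32 and −0.26. Neither leaf call held without the mock leaf array or with mock arrays alone, and that of psaB was also lost without the EST leaf array.

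Photosystem II splits water, and its group of 15 held both the largest measured leaf excess and several genes that were no lower with EST in leaves. Leaf excesses of genes at the lowest value in seedlings, such as petG, may be larger than measured. The signal of psbK, a small subunit, was 4.2 and 5.02 at 3 h, 3.27 and 3.71 at 4 h and, in leaves, 10.73 and 10.84 at 6 h. It was higher in leaves by 6.74 ± 0.55, or 107-fold (limma adjusted p = 0.00452), the largest measured difference of any member. Its neighbour psbI, another small subunit, had 6.21 and 6.57, 6.34 and 6.14, and 10.74 and 11.04, a difference of 4.58 ± 0.16 (limma adjusted p = 0.00116). This call held in all 14 alternatives, whereas that of psbK was lost with mock arrays alone. Neither gene was lower in EST than in mock leaves (differences of 0.11 and 0.30).

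The genes psbA and psbD of photosystem II were at least 2-fold lower with EST at 6 h. For psbA, which encodes the D1 protein, signals were 6.99 and 6.90 at 3 h, 6.64 and 6.18 at 4 h and, in leaves, 11.46 and 9.99 at 6 h. The leaf signal of psbA was thus higher by 4.05 ± 0.42 (limma adjusted p = 0.00735, a call lost with mock arrays alone), and EST and mock leaves differed by −1.47. For psbD, which encodes the D2 protein, the EST minus mock differences were −0.02, −0.33 and −1.60, and its signal in EST leaves (8.05) lay within the range of the seedling arrays (6.55 to 8.08). The inner antenna gene psbC differed by −1.31 at 6 h and its counterpart psbB by −0.73. Neither was called between leaves and seedlings (differences of 1.07 and 2.29, limma adjusted p = 0.159 and 0.0758).

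The remaining small subunits of photosystem II were all within 2-fold at 6 h. The cytochrome genes psbE and psbF and the gene psbH had differences of 0.47, 0.13 and 0.17, whereas psbJ (−0.88), psbN (−0.85), psbZ (−0.73), psbM (−0.56), psbT (−0.55) and psbL (−0.21) were lower with EST. The leaf excess of psbE, 1.05 ± 0.25 (limma adjusted p = 0.0489), held in 5 of 14 alternatives only. Over the whole group, 3 of 15 genes were at least 2-fold lower with EST at 6 h, against 1.22% of all probe sets. In leaves 4 of the 15 were called higher and 0 lower, against 19% and 18.2% of all probe sets. The group medians of EST minus mock were 0.30, −0.11 and −0.56 at 3, 4 and 6 h. The highest mean signal of the group belonged to psbM (12.50) and the lowest to psbN (4.16), although signals of different probe sets do not rank transcripts.

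The cytochrome b6f complex links the photosystems, and its plastid genes had the lowest group median at 6 h, −1.40. The small subunit gene petG was at the lowest value, 2.15, on all 4 seedling arrays and at 7.66 in mock and 5.94 in EST leaves. Its leaf excess of 4.65 ± 0.47 (limma adjusted p = 0.00689) was called in all 13 alternatives that tested it, although seedling signals below the minimum could not be read. Signals of petL, a neighbouring small subunit gene, were 2.99 and 3.03, 3.06 and 2.54, and 6.74 and 5.12, so that leaves were higher by 3.03 ± 0.41 (limma adjusted p = 0.0134), a call lost without the EST array of 4 h or either mock seedling array. For petD, which encodes subunit IV, the signal was 2.15 on the seedling arrays, 4.75 in mock leaves and 2.18 in EST leaves, a difference of −2.57 that ended near the lowest value.

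The 2 genes of the complex with high signals differed less. These were petA (cytochrome f) and petB (cytochrome b6), which differed between EST and mock leaves by −0.65 and −0.32. The gene petN was the only member at least 2-fold lower with EST at 3 h. Its signals were 5.35 and 4.23 at 3 h, 4.23 and 4.17 at 4 h and, in leaves, 6.59 and 5.41 at 6 h. The mock array of 3 h thus stood above the other seedling arrays, and the difference at 3 h, −1.12, became 0.00 against the mock array of 4 h.

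Of the ATP synthase genes, 4 of 6 were at least 2-fold lower with EST at 6 h, against 1.22% of all probe sets. The genes of the cluster rps2, atpI, atpH, atpF and atpA were all among the lower genes. The genes atpB and atpE, which form a cluster of their own, differed by −0.04 and 0.01, but their leaf signals of 14.61 to 14.65 lay close to the highest of the arrays, so a difference there may not be measurable. For atpA, the alpha subunit of the catalytic head, signals were 6.40 and 5.80 at 3 h, 6.04 and 4.85 at 4 h and, in leaves, 11.36 and 10.05 at 6 h. EST was lower than mock at each time point, by −0.59, −1.19 and −1.31, and leaves were higher than seedlings by 4.93 ± 0.35, or 30.5-fold (limma adjusted p = 0.00358), a call lost with mock arrays alone. The beta subunit gene atpB had 14.15 and 14.38, 14.05 and 14.10, and 14.65 and 14.61, where the highest signal of each array was at least 14.70.

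Of the membrane part of the synthase, atpH, which encodes the subunit of the rotating ring, had 7.08 and 6.94, 7.76 and 7.18, and 8.37 and 6.36. EST leaves thus lay below all seedling arrays, and mock leaves above them, with a difference of −2.0. For atpF the difference at 6 h was −1.49 and leaves were higher by 2.38 ± 0.41 (limma adjusted p = 0.0232), a call lost in 5 of 14 alternatives. The signal of atpI was 2.69 to 2.70 on the seedling arrays, 4.04 in mock leaves and 2.76 in EST leaves. The leaf excess of atpE, 0.34 ± 0.03 (limma adjusted p = 0.00447), lay in the same range of highest signals, and its call was lost with mock arrays alone.

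The NDH complex feeds electrons back from the acceptor side of photosystem I, and its plastid genes held the largest EST differences of all members. The gene ndhG was at 2.15 on all seedling arrays and in EST leaves and at 5.58 in mock leaves, a difference of −3.43, or at least 10.8-fold. For ndhE, signals were 2.82 and 2.92, 2.79 and 2.25, and 7.51 and 4.42, so that EST leaves were lower by 3.09 and still above all seedling arrays. For ndhD they were 4.93 and 5.60, 4.03 and 3.24, and 9.78 and 7.11, a difference of −2.67 at 6 h. These genes adjoin psaC, and the run ndhD, psaC, ndhE and ndhG was at least 4-fold lower throughout (−2.02 to −3.43).

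Other genes of the same complex did not share this. At 6 h ndhI differed by −0.24 and ndhA by −0.22, although both belong to the same cluster. The gene ndhH, at the far side of the cluster, had 6.58 and 6.98, 5.40 and 5.47, and 6.03 and 7.12, and its difference of 1.09 made it the only member at least 2-fold higher. Its mock arrays of 4 h and 3 h differed by −1.18. In a second cluster, ndhJ (−1.19) and ndhK (−1.47) were lower with EST at 6 h and ndhC (−0.29) less so, and ndhJ and ndhK were higher in leaves by 3.78 ± 0.45 and 3.93 ± 0.40 (limma adjusted p = 0.00978 and 0.00702), of which the call of ndhJ held in 11 and that of ndhK in all 13 alternatives that tested it. The signal of ndhF stayed at 2.15 to 2.16 on all arrays, so nothing can be said of it.

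The gene of the large subunit of Rubisco, rbcL, was close to its seedling signal in leaves. It had 7.81 and 7.70 at 3 h, 8.72 and 8.55 at 4 h and, in leaves, 7.89 and 7.70 at 6 h. The differences between EST and mock (−0.11, −0.17 and −0.19) were smaller than the 0.91 between the mock seedling arrays. Leaves and seedlings differed by −0.40 ± 0.41 (limma adjusted p = 0.628).

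Among the genes of the plastid RNA polymerase, rpoA had signals of 12.61 to 13.12 in seedlings and of 13.17 and 13.16 in leaves, and EST differed from mock by 0.19, −0.32 and −0.01. For rpoC1, signals were 6.26 and 6.55, 6.69 and 6.38, and 8.18 and 6.95, so that it was at least 2-fold lower with EST at 6 h (−1.23). For rpoC2, EST differed from mock by −0.06, −0.85 and −0.99, just short of 2-fold at 6 h. The first gene of that cluster, rpoB, was at 2.17 on all arrays. None of the 4 was called between leaves and seedlings.

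The 15 ribosomal protein genes had a lower median of leaves minus seedlings than most groups. It was −0.38, or −0.03 with mock arrays alone, whereas the medians were 1.75 for psa, 1.05 for psb, 1.41 for pet, 0.58 for atp and 1.09 for ndh, and rbcL had −0.40. The ribosomal protein probe sets of the inverted repeat, which are no members, were by contrast all called higher in leaves, with differences of 2.47 and 2.04 for rps12, 1.96 for rps7, 1.74 for rpl23 and 0.92 for rpl2. The only members called lower in leaves were 3 adjacent genes of this group. They were rpl22 (−1.61 ± 0.11, limma adjusted p = 0.00311), rps19 (−1.13 ± 0.14, adjusted p = 0.0108) and rps3 (−1.09 ± 0.20, adjusted p = 0.0291). For rpl22, signals were 13.10 and 13.05, 12.93 and 12.85, and 11.29 and 11.46, so the groups did not overlap. The call of rps3 held in 7 of 14 alternatives, that of rps19 in 10 and that of rpl22 in 13.

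At 6 h the ribosomal protein genes that were at least 2-fold lower lay outside 1 long cluster, but position went together with signal. Lower by at least 2-fold with EST were rpl20 (−1.31), rpl33 (−1.29), rps2 (−1.22), rps18 (−1.18) and rps14 (−1.10, a lower bound because EST leaves were at 2.15). The genes of the long cluster from rps19 to rpoA, which holds 7 members, were not. There the differences ran from −0.72 for rpl16 to 0.65 for rpl36. For rpl20, signals were 5.79 and 5.70, 5.81 and 4.67, and 7.08 and 5.77, and EST was lower by 1.14 at 4 h as well. The gene rps16, outside these clusters, had 6.84 and 7.14, 7.18 and 6.97, and 5.45 and 6.45, so that the difference at 6 h was 1.0 and mock leaves lay lowest.

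Of the 7 other genes, all were lower with EST at both 4 h and 6 h, with medians of −0.35 and −0.89. For accD, a subunit of acetyl-CoA carboxylase in fatty acid synthesis, signals were 5.15 and 5.25, 5.08 and 4.71, and 8.01 and 6.31. It differed by −1.71 at 6 h, and its leaf excess of 2.11 ± 0.46 (limma adjusted p = 0.0422) was lost in 5 of 13 alternatives, each of which left out 1 array. The protease subunit gene clpP had 10.89 and 10.77, 10.91 and 10.56, and 11.89 and 11.41, with a leaf excess of 0.87 ± 0.10 (limma adjusted p = 0.00860), which was not called without the mock leaf array. Its EST differences were −0.13, −0.35 and −0.49.

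The others of this group were not called between leaves and seedlings. The splicing factor gene matK differed with EST by −0.13, −0.73 and −0.85 and between leaves and seedlings by −0.35 ± 0.30. Of the genes for assembly of photosystem I, ycf3 differed with EST by −0.36, −0.63 and −1.35 and ycf4 by −0.20, −0.30 and −0.93. The heme attachment gene ccsA differed by −0.33, −0.19 and −0.89, and its leaf excess was 1.83 ± 0.45 (limma adjusted p = 0.0562). Just inside the 2-fold limit at 6 h were petN, rps18 and rps14, and just outside it rpoC2, ycf4 and ccsA.

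Many of the genes lower at 6 h were neighbours on the genome, as the plot in gene order shows. The 27 fell into 12 uninterrupted runs of measured genes, of which the longest were petL, petG, psaJ, rpl33, rps18 and rpl20 (6 genes, −1.18 to −1.72), atpA to rps2 (5 genes, −1.22 to −2.0) and ndhD to ndhG (4 genes). In contrast, 0 of 7 measured genes of the rps19 to rpoA cluster, 0 of 4 of the psbE cluster and 0 of 2 of the atpB cluster were at least 2-fold lower. In the psbB cluster 1 of 6 genes (petD) was. The genes of the rps19 to rpoA, psbE and atpB clusters all had high mean signals, from 10.0 (rpl16) to 14.4 (atpE). Position and signal thus cannot be told apart. Whether the runs exceed what 27 of 69 genes would give was not tested. Neighbours share transcripts and are not independent, and the run of petL to rpl20 spans more than 1 cluster.

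**Figure D3:**
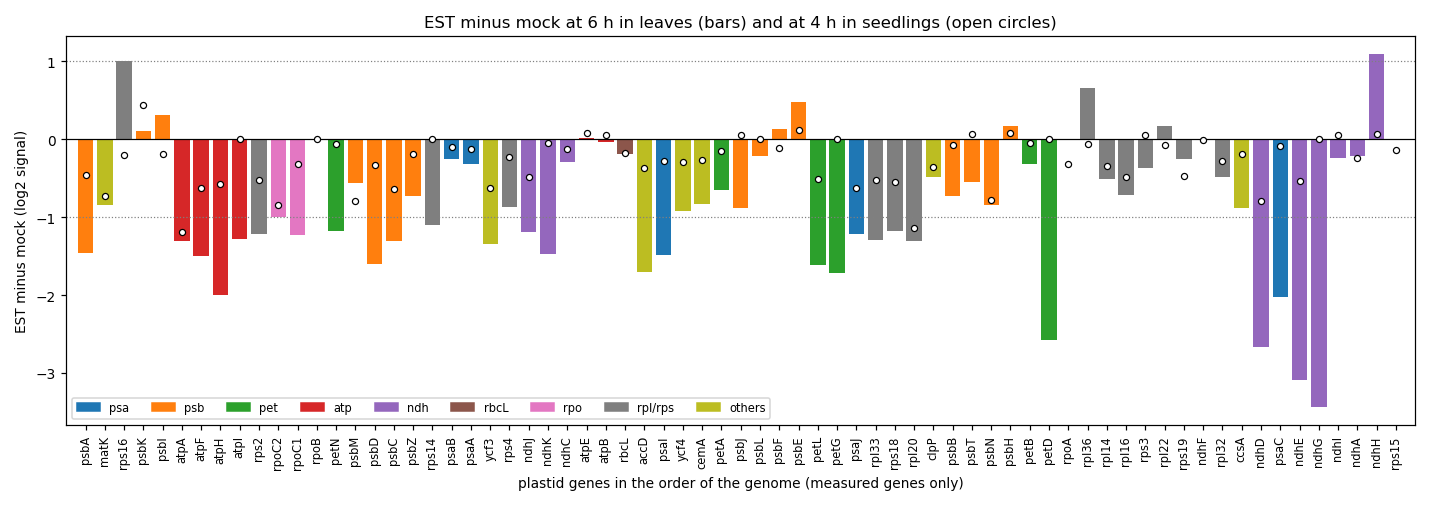
EST minus mock difference in log2 signal (vertical axis) at 6 h in leaves (bars, coloured by gene group) and at 4 h in seedlings (open circles) for the 69 plastid genes in the order of the genome (horizontal axis, measured genes only). Dotted lines mark 2-fold; runs of neighbouring bars pass it at atpA to rps2, petL to rpl20 and ndhD to ndhG, and ndhH alone passes it upwards.

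The genes that were at least 2-fold lower at 6 h had lower signals than the others. Split by the mean signal over all 6 arrays, 4 of 6 members with a mean under 3, 10 of 13 between 3 and 6, 9 of 18 between 6 and 9, 4 of 20 between 9 and 12 and 0 of 12 above were lower. The shares of all probe sets in the same ranges were 0.596%, 3.37%, 0.997%, 0.559% and 0%. In each range from 3 to 12 the plastid share thus exceeded that of all probe sets, although the ranges hold 20 members at most. The ranges are not matched for leaf signal, because the mean includes the 4 seedling arrays. Between 3 and 6 the median of leaves minus seedlings was 2.79 for members and −0.04 for all probe sets, and between 6 and 9 it was 1.41 and 0.07. Members of these ranges thus mostly started from higher leaf signals, from which a larger decrease can be seen. Probe sets with a mean under 3 lie near the lowest value, where most cannot fall 2-fold. The shares of that range are therefore no fair comparison. Among the 50 members with a mean of at least 6, 13 were lower (26%), compared with 27 of all 69. The 27 had a median EST minus mock difference of −0.49 at 4 h and 0 at 3 h in seedlings, and the other 42 had −0.13 and 0.11.

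**Figure D4:**
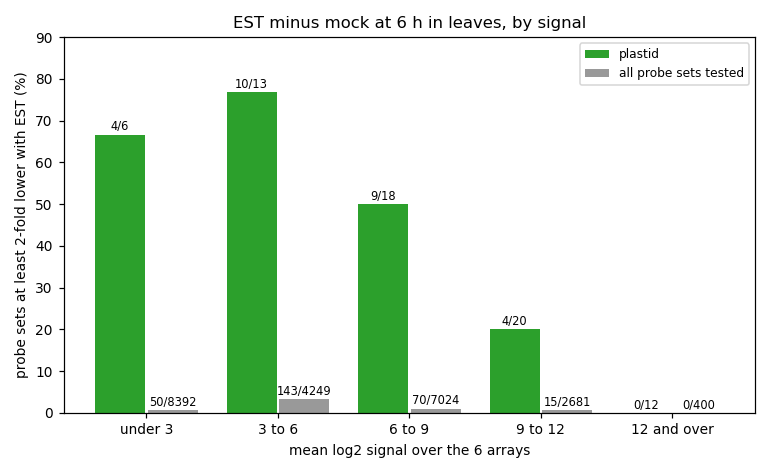
Share of probe sets at least 2-fold lower with EST at 6 h in leaves (vertical axis, percent), by mean log2 signal over the 6 arrays (horizontal axis), for plastid probe sets (green) and all probe sets tested (grey), with counts above the bars. The plastid share is highest, 10 of 13, between 3 and 6 and is 0 of 12 at 12 and over.

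Few of the nuclear genes for the same complexes could be set beside the plastid genes, because the annotation pairs only 15 of 91 listed partners with 1 gene alone. Of these 15, 0 were at least 2-fold lower with EST at 6 h and 3 were higher, against 1.22% and 1.24% of all probe sets. At such a share, 0 lower of 15 does not set these genes apart from other probe sets. Their median was 0.36. NDHN and NDHL, nuclear subunits of the NDH complex, differed by 1.80 and 1.35, whereas 5 of the 10 plastid ndh genes were at least 2-fold lower. LHCB4.3, a light-harvesting protein, differed by 1.12. Between leaves and seedlings NDHS (1.33) and PETM (0.75) lay furthest towards leaves and RPOTmp, a phage-type polymerase (−1.23), and LHCB4.3 (−1.09) furthest towards seedlings. Of these, NDHS, PETM and RPOTmp were called (limma adjusted p = 0.0144, 0.0113 and 0.0109) and LHCB4.3 was not (0.129).

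The genes of the mitochondrial genome, whose messengers also lack stable poly(A) tails, were measured by 18 probe sets of 11 genes at low signals. Their median EST minus mock difference at 6 h was −0.25, and 2 of 18 were at least 2-fold lower. In leaves, 10 of 18 were called higher than in seedlings and 0 lower, against 19% and 18.2% of all probe sets, with a median difference of 0.96. Several of those called higher were probe sets of the same gene, nad1, and are not independent. The mitochondrial probe sets thus also lay higher in leaves and, at 6 h, mostly lower with EST (12 of 18), and the part of a common source in both sets was not tested.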

How the data were processed

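Each of the 6 arrays gave log2 signals, which the authors deposited after GCRMA normalization between arrays; its version is not given in the sources used here. The values were used as deposited. The array annotation held 1 gene for 13513 of 22746 probe sets, several genes for 503 and no entry for 8730. Symbols and gene order came from the RefSeq annotation of TAIR10.1, and sequences were not used here. The labels give 0.1% ethanol for mock. The paper gives a higher ethanol concentration and a younger age for the plants of the leaf samples, and the labels were followed. Members, gene lists and tests were chosen with earlier results of these data known.

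EST minus mock was taken per time point and counted past 2-fold, without a test. limma 3.58.1 (R 4.3.3; lmFit, eBayes) was run over all 22746 probe sets with Benjamini-Hochberg adjustment, for EST minus mock with the time point as a block, for leaves minus seedlings with treatment as a covariate, and for the difference in response. The seedling and leaf arrays that enter as replicates differ in time or treatment, so their spread is not that of repeated samples. Precision is limited by the number of arrays. A signal under 3 was taken as near the minimum. Named genes were those with the highest and lowest mean signal of each group, those past 2-fold with EST, the 10 furthest in each direction between tissues and a set of core genes; further genes were picked with their values known.

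The alternatives tried were centring, quantile normalization, a mean signal of at least 6, thresholds of 1.5-fold and 3-fold, exchanged or averaged mock seedling arrays, other limma settings and probe set choices, and leaving out single arrays. Figures used matplotlib 3.10.9.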

Additional observations from a re-analysis of the deposited data

Results flagged for a closer look

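Some members had differences of opposite sign in leaves and at both seedling time points; the difference was not tested beyond the interaction fit, in which it was not called. Lower with EST in leaves at 6 h and higher in seedlings were psbJ (−0.88), psbT (−0.55), rps3 (−0.38), ndhI (−0.24), psbL (−0.21) and atpB (−0.035), and rpl22 was higher in leaves (0.17) and lower in seedlings.

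Outside the 69 members, 3 plastid probe sets of the inverted repeat were at least 2-fold lower with EST than with mock in leaves at 6 h. The probe sets of rps12 differed by −1.30 and −1.64 and that of rps7 by −1.51. Those of rpl2 (0.42) and rpl23 (0.49) did not. Of the mitochondrial genes, cox1 (−1.05) and nad9 (−1.04) were at least 2-fold lower in EST than in mock leaves.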

How the results depend on the processing

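At 6 h the median and the count of 27 lower members changed little with quantile normalization (27) and centring (28), whereas 13 of 50 members with a mean signal of at least 6 were lower, with a median of −0.53 instead of −0.83, and 10 were at least 3-fold lower; 3 members were higher at 1.5-fold and 0 at 3-fold. The seedling counts rested on single mock arrays. Of members lower at 3 h, exchanged mock arrays gave 4, averaged mock arrays 0, the filter 0, 1.5-fold 2 and 3-fold 0, and of members higher at 3 h they gave 9, 5 and, at 1.5-fold, 6. At 4 h lower members numbered 10 with exchanged and 5 with averaged mock arrays, 1 with the filter, 11 at 1.5-fold and 0 at 3-fold. The difference of petN at 3 h became 0.00 with exchanged mock arrays, whereas atpA and rpl20 kept their side at 4 h.

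Between leaves and seedlings, centring, which shifts all differences by 0.10, raised the members called higher to 33 (47.8%, against 24.8% of all probe sets). With the filter, 6 of 50 members (12%) were called lower, against 36.2% of all probe sets. With mock arrays alone the median was 0.92. Leaving out single arrays gave 11 to 20 called higher, 1 to 3 called lower and a median of 0.30 to 0.92. Members above a signal of 3 on all arrays, an alternative chosen after seeing the data, left 58 members and a median of −0.69 at 6 h. Of these 58, 18 were at least 2-fold lower with EST at 6 h, compared with 27 of all 69. EST minus mock over the time points called 0 members in each alternative. The labels give no replicate numbers; EST and mock arrays were paired by time point through the block, and without the block 0 members were called.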
